A study of Drosophila melanogaster with 2 samples.

Results

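The transfer RNA (tRNA) genes of the nuclear genome were examined for binding of Crooked legs (Crol), a zinc finger protein, in whole Drosophila melanogaster embryos. Members were all genes that the annotation types as tRNA on arms 2L, 2R, 3L, 3R, 4 and X, which gave 290 tRNA genes among 18164 genes. The annotation holds 312 tRNA genes, and the 22 of the mitochondrial genome were left out. Arm 4 carried no member. The embryos came from transgenic flies of the crol-GFP strain, which express Crol joined to eGFP, and were collected at 0-24 hours of development with every cell type mixed. Chromatin immunoprecipitation with sequencing (ChIP-seq) was done with an antibody to GFP, although another label field names crol as the antibody. The only group held 2 libraries labelled as biological replicates, so no condition was compared, and a control experiment named in the labels was not analysed here. Each tRNA gene was scored by whether the summit of a peak, its highest point, lay within 500 bp of the annotated start. The main list was the authors' conservative one, the 9211 peaks that passed their reproducibility threshold between replicates, and weaker peaks came from their unthresholded ranked list.

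tRNA genes are transcribed by RNA polymerase III. Their promoters lie inside the gene, in an A box and a B box that are bound by the factor TFIIIC, which then places TFIIIB upstream of the start to recruit the polymerase. Many tRNA genes exist in several copies with the same sequence, often in clusters, so that copies encode an identical product. A few, including those for tyrosine, carry a short intron just after the anticodon that is cut out of the transcript. Aminoacyl-tRNA synthetases then load each tRNA with its amino acid. Crol is known in flies as an ecdysone-inducible regulator of leg and wing development.

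The tRNA genes for tyrosine (tRNA-Tyr, anticodon GTA) had the highest share of members with a conservative peak of the 22 amino acid classes, 6 of 10 genes (60%, exact 95% interval 26.2 to 87.8). They are shown because 9 of the 10 give the same spliced tRNA, and yet 6 of those 9 had a peak and 3 had none. The first 3 sequences below had a peak and the other 3 had none. All are from the dm6 genome in the RefSeq copy, written 5′ to 3′ on the gene's strand, with the intron in capitals.
tRNA:Tyr-GTA-1-3: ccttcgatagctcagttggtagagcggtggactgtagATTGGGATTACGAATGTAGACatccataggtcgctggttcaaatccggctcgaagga
tRNA:Tyr-GTA-1-4: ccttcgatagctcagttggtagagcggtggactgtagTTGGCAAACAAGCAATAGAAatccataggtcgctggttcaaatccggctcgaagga
tRNA:Tyr-GTA-1-8: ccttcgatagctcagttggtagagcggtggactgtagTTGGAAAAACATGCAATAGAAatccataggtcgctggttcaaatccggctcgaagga
tRNA:Tyr-GTA-1-2: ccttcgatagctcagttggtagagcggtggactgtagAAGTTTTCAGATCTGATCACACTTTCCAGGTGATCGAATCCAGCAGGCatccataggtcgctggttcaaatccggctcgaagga
tRNA:Tyr-GTA-1-1: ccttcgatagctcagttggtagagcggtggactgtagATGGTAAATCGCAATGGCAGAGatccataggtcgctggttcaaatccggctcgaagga
tRNA:Tyr-GTA-2-1: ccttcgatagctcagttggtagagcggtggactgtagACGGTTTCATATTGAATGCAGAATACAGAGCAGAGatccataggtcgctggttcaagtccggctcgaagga

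The exons of tRNA:Tyr-GTA-1-3, 1-4, 1-8, 1-2 and 1-1 are letter for letter the same, and those of tRNA:Tyr-GTA-2-1 are not. The introns differ from gene to gene, and no intron-bearing tRNA gene shared its unspliced sequence with another. Among the 6 genes with a peak the intron was 20 or 21 bp long. The 4 without one had introns of 22, 35, 48 and 113 bp, the longest in tRNA:Tyr-GTA-1-9. The peaks at tRNA-Tyr genes numbered 4, since some reached more than 1 gene. Genes that share a peak are not separate observations, and a link to intron length was not tested. Outside tyrosine, intron-bearing tRNA:Leu-CAA-2-3 had a peak and is 123 bp long. Its copies 2-1 and 2-2 had no conservative peak and are 121 and 125 bp long.

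On 3R, tRNA:Tyr-GTA-1-4 (chr3R:8642333-8642425) and tRNA:Tyr-GTA-1-5 (chr3R:8642701-8642793), which point the same way, shared a peak with its summit 26 bp upstream of the first. Its signal, the height the authors deposited, was 179 in the conservative list, 99.6 in replicate 1's ranked list and 82.7 in replicate 2's. The summit lay 342 bp downstream of the start of tRNA:Tyr-GTA-1-5, past the end of that gene, and 3007 bp from the nearest protein-coding start. A second group of 3 genes on the same arm lies within introns of CG8036 and p. There a peak of signal 174 (103 in replicate 1 and 68.3 in replicate 2) had its summit 2 bp past the start of tRNA:Tyr-GTA-1-6, and it reached tRNA:Tyr-GTA-1-7 only at 499 bp, just inside the window. The next peak, of signal 199 (118 and 78.0), lay 226 bp upstream of tRNA:Tyr-GTA-1-8. A start of CG8036 was 218 bp from that last summit and 338 bp from the one before it, so these peaks were promoter peaks of a protein-coding gene as well.

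On 2L, tRNA:Tyr-GTA-1-3 (chr2L:2462593-2462686) had a summit 127 bp upstream, with a signal of 91.1 in the conservative list and 45.6 and 46.8 in replicates 1 and 2. Its neighbour tRNA:Tyr-GTA-1-2 (chr2L:2459924-2460044) had none within the window. Between the pair stood a much higher peak, of signal 750 (426 in replicate 1 and 321 in replicate 2), whose summit was 1034 bp from the nearer tRNA start and so outside the window. The nearest summit to tRNA:Tyr-GTA-1-2 was 1515 bp away. For tRNA:Tyr-GTA-1-9 it was 35532 bp away, and for tRNA:Tyr-GTA-1-1 and 2-1 on X it was 18070 and 17892 bp. None of these 4 genes had a peak in the ranked list either. The map of the tRNA-Tyr loci shows where summits fell around the genes.

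**Figure D1:**
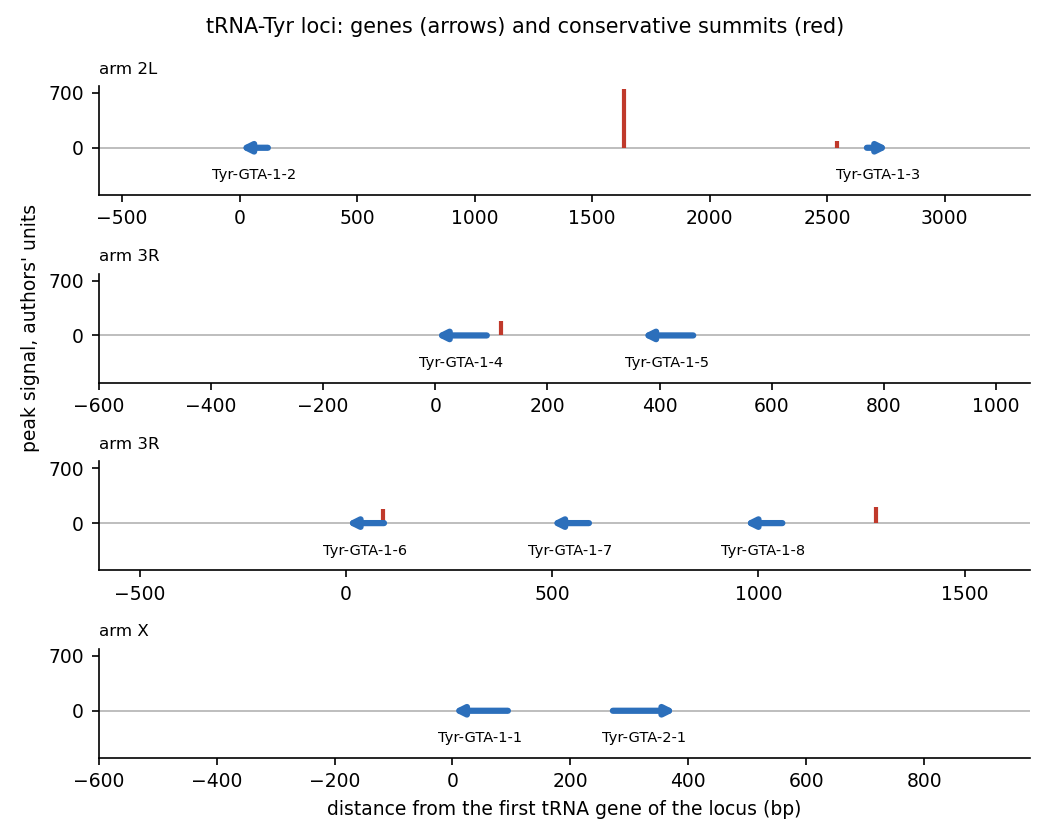
The 4 tRNA-Tyr loci with more than 1 gene, with distance in bp from the first gene of each locus on the x axis and signal of each conservative peak on the y axis (red lines). Arrows are tRNA genes and point in the direction of transcription. Summits of signal 179, 174 and 199 stand at the 3R genes and none at the pair on X, while the highest, 750, lies between the 2L genes and over 1000 bp from both. The single gene tRNA:Tyr-GTA-1-9 is not drawn.

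Over all tRNA genes, 29 of 290 had a conservative peak (10%, exact 95% interval 6.80 to 14.0, which covers the counting of genes only). The share was 14.1% for all genes of the arms and 15.5% for protein-coding genes. Those genes often have several annotated starts, and every tRNA gene has 1. Among the 14328 genes with 1 start the share was 9.48%, close to that of the tRNA genes. tRNA genes as a class were therefore near the background of genes with as many starts, and no test was made of the difference. With the authors' thresholded list of replicate 1 alone the count was 24 genes, and with that of replicate 2 alone it was 18. A window of 250 bp gave 16 genes and one of 1000 bp gave 49. Members just inside the window were tRNA:Tyr-GTA-1-7 at 499 bp, tRNA:Gln-CTG-2-4 at 486 bp and tRNA:Arg-ACG-1-1 at 484 bp. Just outside it were tRNA:Pro-AGG-1-7 at 504 bp (signal 121), tRNA:Gln-TTG-2-1 at 552 bp (119) and tRNA:Glu-CTC-3-1 at 564 bp (163).

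The 29 genes were reached by 26 distinct peaks, 0.282% of the conservative list. Of these, 19 reached 1 tRNA gene, 5 reached 2 and 2 reached 3. Their median signal was 108 (quartiles 78.8 and 170), beside 113 (78.6 and 191) over all 9211 peaks, and 12 of the 26 stood at or above that overall median. In the ranked lists of the single replicates, 25 had an overlapping peak in replicate 1 (35.7 to 1014) and 22 in replicate 2 (28.6 to 704), with 21 in both. At the authors' threshold, 17 overlapped a peak of replicate 1 alone, 15 a peak of replicate 2 alone and 11 both. The rank plot shows tRNA peaks from near the top of the list downwards. The lowest was 2.58, beside 2.04 in the whole list. The 3 lowest are second summits beside a stronger one, and without them the lowest was 35.9. Second summits were not taken out of the whole list, so 35.9 has no like value there.

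**Figure D2:**
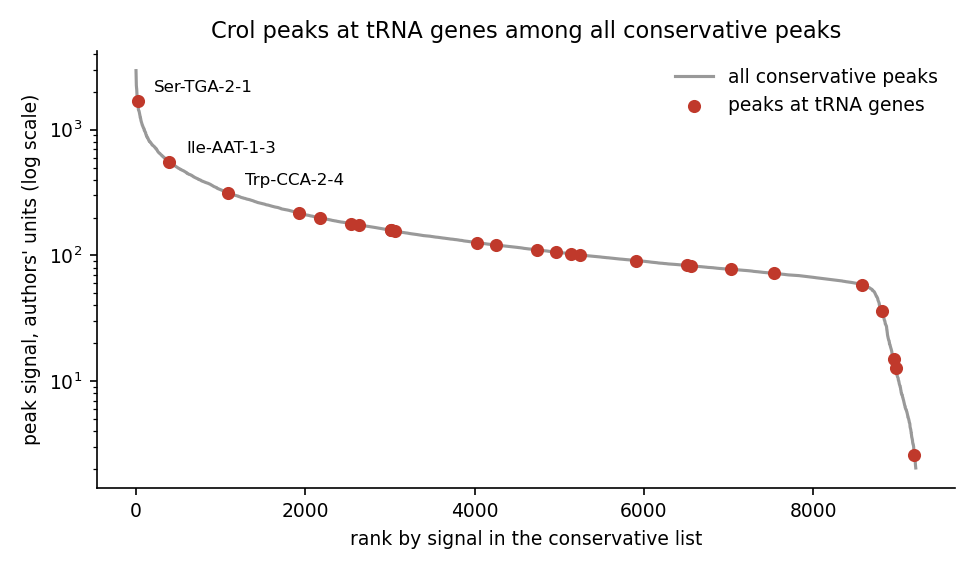
Signal of each of the 9211 conservative peaks (grey line, log scale) against its rank, with the 26 peaks at tRNA genes as red points. The peak at tRNA:Ser-TGA-2-1 stands at rank 20 with a signal of 1707, and the lowest, a second summit at tRNA:Arg-TCT-3-1, at rank 9193 with 2.58.

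The strongest peak at any tRNA gene lay at the pair for serine with anticodon TGA on 2R. tRNA:Ser-TGA-1-1 (chr2R:23072019-23072100, minus strand) and tRNA:Ser-TGA-2-1 (chr2R:23072581-23072662, plus strand) point away from each other, and the summit at position 23072510 was upstream of both, by 410 and 71 bp. Its signal was 1707 in the conservative list, rank 20 of 9211, with 1014 in replicate 1 and 704 in replicate 2. The nearest protein-coding start, of l(2)k09913, was 2125 bp away, so the tRNA pair held the nearest starts of any gene. Each of the pair has a spliced sequence found at no other tRNA gene.

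The next by signal was at tRNA:Ile-AAT-1-3 (chr2R:13430282-13430355), an isoleucine tRNA gene inside ATP8A. The peak had a signal of 557.7 (280.3 in replicate 1 and 272 in replicate 2) and rank 395. Its summit lay 362 bp downstream of the tRNA start and only 98 bp from a start of ATP8A, which encodes a phospholipid-transporting ATPase. That protein-coding start was thus the nearer.

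Tryptophan tRNA genes (anticodon CCA) followed, with a peak at 4 of 8 genes (50%, interval 15.7 to 84.3). The count was 3 of 8 (37.5%) with replicate 2's thresholded list alone and with signals at or above the conservative list's median. With replicate 1's thresholded list alone it stayed at 4 of 8. On 2R a group of 3 tRNA genes, tRNA:Trp-CCA-2-3, tRNA:Gly-GCC-1-12 and tRNA:Trp-CCA-2-4, fills 535 bp and carried 2 peaks that each reached all 3 genes. The higher, of signal 315 (207 in replicate 1 and 112 in replicate 2), had its summit 31 bp upstream of tRNA:Trp-CCA-2-4. The other, of signal 217, lay 74 bp upstream of tRNA:Trp-CCA-2-3 and overlapped a peak of 67.0 in replicate 2, with none in replicate 1's ranked list. tRNA:Trp-CCA-2-5, in an intron of Pu, had a summit 246 bp upstream with a signal of 121 (74.4 and 29.8). tRNA:Trp-CCA-2-1, in an intron of CG15431 on 2L, had one 161 bp upstream of 111, with 79.5 in replicate 1 and none listed in replicate 2. Of the other 4 tryptophan genes, 3 had a ranked-list peak only and tRNA:Trp-CCA-2-6 had none.

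The remaining peaks among the 10 strongest each belonged to a single tRNA gene. tRNA:Leu-CAA-2-3 on 3R, a leucine gene with an intron, had a summit 246 bp upstream with a signal of 158.3 (86.6 in replicate 1 and 62.7 in replicate 2). tRNA:Asp-GTC-1-6 on 2L, an aspartate gene in an intron of the guidance gene Sema1a, had one 455 bp upstream with 158.1 (68.8 and 82.2). tRNA:Arg-ACG-1-1 on 2R, an arginine gene in an intron of EcR, the ecdysone receptor gene, had one 484 bp upstream with 156 (92.9 and 53.0). Both of the latter summits were nearer to the edge of the window than to the tRNA gene. Each replicate's list has its own scale, so its values were read against each other only within it. In the plot of replicates the 3 strongest stood in the same order in both lists.

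**Figure D3:**
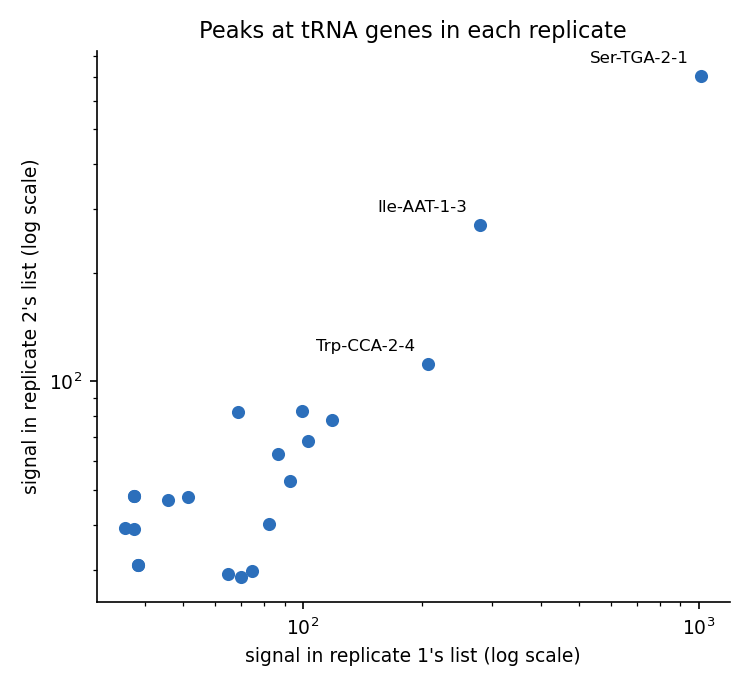
Signal in replicate 1's ranked list (x axis) and replicate 2's (y axis), both log scales, for the 21 of 26 tRNA peaks with an overlapping peak in both. tRNA:Ser-TGA-2-1 stands at 1014 and 704, above tRNA:Ile-AAT-1-3 at 280.3 and 272. Points of summits that share 1 replicate peak coincide.

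Among the weaker conservative peaks, glutamine genes had 2. tRNA:Gln-TTG-1-2 and tRNA:Gln-TTG-1-3 on 3R shared a summit of signal 127 (82.2 in replicate 1 and 40.3 in replicate 2), 63 bp upstream of the latter and 184 bp from a start of Spag1. tRNA:Gln-CTG-2-4 on 2L had one of 103 (51.4 and 47.7) that lay 486 bp downstream, in an exon of CG4238. The divergent pair tRNA:Arg-TCT-1-1 and tRNA:Met-CAT-1-1 on 2R shared a summit of 106 (69.9 and 28.6) inside the arginine gene, 16 bp past its start. Lysine, threonine and phenylalanine classes each had 1 gene with a peak: tRNA:Lys-CTT-1-6 with a signal of 100.9, tRNA:Thr-AGT-1-7, in an intron of the FGF ligand gene bnl, with 77.6, and tRNA:Phe-GAA-1-2 with 72.0. The summit at the last was 26 bp from a start of RpL17, a ribosomal protein gene. tRNA:Leu-TAA-1-1, in an intron of bon, had one of 83.2 at 454 bp upstream.

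The 3 lowest signals all came from second summits beside a stronger one. tRNA:Ser-AGA-2-2 on X had summits of 82.5 and 14.9, tRNA:Arg-TCT-3-1 on 2L of 58.5 and 2.58, and tRNA:Leu-AAG-1-3 on 2R of 35.9 and 12.6. Within each of these pairs the deposited intervals overlap and both summits match the same replicate peak, so they are not separate observations.

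By amino acid, 13 of the 22 classes had at least 1 gene with a conservative peak. Besides tyrosine and tryptophan, glutamine had 3 of 12 genes (25%, interval 5.49 to 57.2; 1 of 12 in replicate 2's thresholded list and 8 of 12 at 1000 bp), serine 3 of 20, leucine 3 of 22 and arginine 3 of 26. Aspartate, glycine, isoleucine, lysine, elongator methionine, phenylalanine and threonine had 1 gene each. The 9 classes without any held 97 genes: alanine (17), asparagine (10), cysteine (7), glutamate (19), histidine (5), proline (17), selenocysteine (1), valine (15) and initiator methionine (6). A count of 0 allows a share of up to 15.8% for the 19 glutamate genes and up to 50% for the 6 initiator methionine genes. With tyrosine set aside, 23 of 280 genes (8.21%) had a peak. Class sizes are small and copies share loci, so intervals describe these genes and no test between classes was made.

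**Figure D4:**
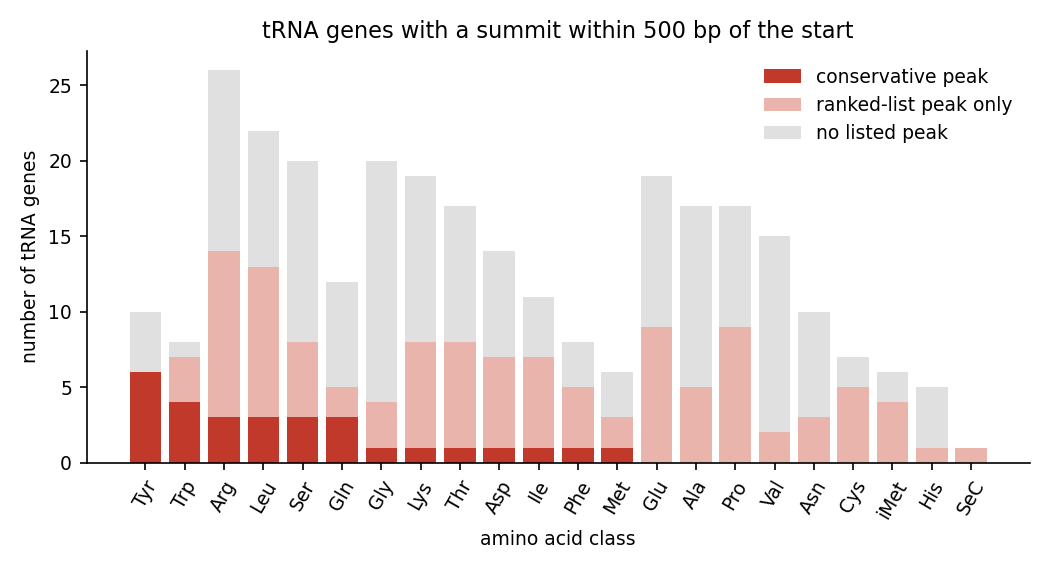
Number of tRNA genes in each amino acid class (y axis), split into those with a conservative peak (red), with a peak in the ranked list only (pink) and with none listed (grey). Tyrosine (6 of 10) and tryptophan (4 of 8) have the tallest red parts, and 9 classes have none.

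Intron-bearing tRNA genes numbered 16, and 7 had a peak (43.8%, interval 19.8 to 70.1), beside 22 of 274 without an intron (8.03%, 5.10 to 11.9). With replicate 2's thresholded list alone these were 6 and 12. The 7 were the 6 tRNA-Tyr genes and tRNA:Leu-CAA-2-3. Outside tyrosine, 1 of 6 intron-bearing genes had one, so the intron and the tyrosine class cannot be told apart here.

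Copies with an identical product were not always alike in whether a Crol peak was listed. The 290 genes give 84 distinct spliced sequences, of which 46 are shared by more than 1 gene and cover 252 genes (86.9%). A peak stood at some but not all members for 15 of the shared sequences, at all members for 0 and at no member for 31. Besides tyrosine, the split was 4 of 6 for tRNA:Trp-CCA-2 and 2 of 3 for tRNA:Gln-TTG-1. In the other 12 a single copy had the peak: 1 of 13 for tRNA:Gly-GCC-1 and for tRNA:Lys-CTT-1, 1 of 12 for tRNA:Asp-GTC-1, 1 of 10 for tRNA:Arg-ACG-1, 1 of 9 for tRNA:Ile-AAT-1, 1 of 8 for tRNA:Phe-GAA-1 and 1 of 7 for tRNA:Thr-AGT-1. It was 1 of 5 for tRNA:Gln-CTG-2, tRNA:Ser-AGA-2 and tRNA:Met-CAT-1, 1 of 4 for tRNA:Leu-AAG-1 and 1 of 3 for tRNA:Leu-CAA-2. Genes with a sequence of their own had a peak in 5 of 38 cases (13.2%), and genes with a shared one in 24 of 252 (9.52%). The latter share is near the 9.48% of all genes with 1 annotated start. How many split sequences such a share alone would give was not tested. With replicate 2's thresholded list alone the genes with a peak numbered 3 with their own sequence and 15 with a shared one. The placing of reads from identical copies is not given in the sources used here, and its part in these counts was not tested.

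Summits lay mostly on the upstream side, and no such share was computed for other genes. Relative to the nearest tRNA start, 19 of 26 were upstream, 3 within the gene and 4 downstream, at a median distance of 219 bp (2 to 491). The upstream ones include the 3 second summits, at 13, 173 and 491 bp, which are not separate observations. Within 100 bp of a tRNA start there were 9, from 100 to 300 bp another 9, and beyond that 8. For 22 summits a tRNA start was the nearest start of any gene, and 6 had a protein-coding start within 500 bp. Counting every start that is not a tRNA's, 8 had one within 500 bp. These include both summits at tRNA:Leu-AAG-1-3, which lay 240 and 490 bp from snoRNA:U3:54Ab. By place, 15 were outside protein-coding genes, 10 in introns and 1 in an exon. In the plot of summit positions, signals close to the start varied widely, from 2.58 at 13 bp upstream to 1707 at 71 bp upstream. Further out, 557.7 stood at 362 bp downstream and 158.1 at 455 bp upstream.

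**Figure D5:**
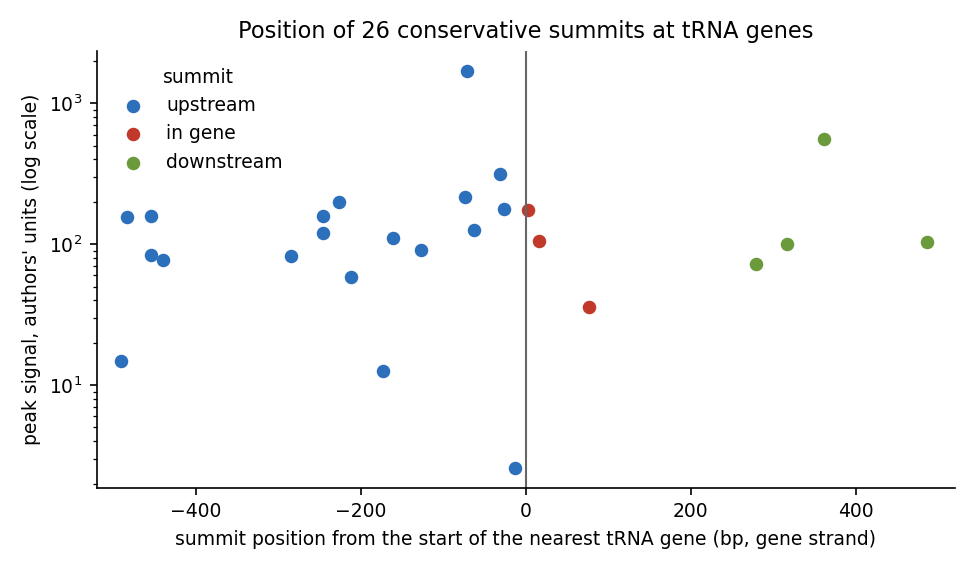
Position of the 26 conservative summits relative to the start of the nearest tRNA gene (x axis, bp along the gene's strand, negative is upstream) and their signal (y axis, log scale). Upstream summits number 19, from 13 to 491 bp away, and 3 lie within a tRNA gene. The upstream summits at 13 and 491 bp are second summits beside a stronger one.

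Of the tRNA genes with a protein-coding start within 500 bp, 6 of 32 (18.8%) had a peak, and of the rest 23 of 258 (8.91%). With replicate 2's thresholded list alone these were 3 (9.38%) and 15 (5.81%). Of tRNA genes inside a protein-coding gene, 12 of 134 had a peak, and of those outside 17 of 156. At 1000 bp these were 25 and 24. The B box core, GTTCGANNC, was searched in each gene's spliced sequence on its own strand. It was found in 160 of 290 genes (55.2%) and in 12 of the 29 with a peak (41.4%). A looser form, GTTCNANNC, was found in 271 (93.4%) and in all 29.

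Clusters were formed by joining tRNA genes no more than 5000 bp apart, which gave 76 single genes and 68 clusters. Peaks stood at 8 of the single genes (10.5%, interval 4.66 to 19.7) and at 21 of 214 clustered genes (9.81%, 6.18 to 14.6). The order of these shares was not stable: with replicate 2's thresholded list alone 4 of 76 single genes (5.26%) and 14 of 214 clustered genes had a peak, and with replicate 1's 7.89% and 8.41%. Clusters of 2 to 4 genes held 19 of 142 with a peak (13.4%, 8.25 to 20.1), and 12 with replicate 2's list alone. The 10 clusters of 5 or more genes held 72 genes, and 2 of these (2.78%) had a peak. They were tRNA:Gln-CTG-2-4 in a 2L cluster of 5 glutamine genes and tRNA:Ile-AAT-1-3 in a 2R cluster of 7 isoleucine and leucine genes. Both of these lay over 250 bp from their summit, and a window of 1000 bp gave 6 genes of the 72.

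The largest tRNA clusters had no listed Crol summit of any strength within 500 bp of a tRNA start. Summits elsewhere in a cluster were not counted. A cluster of 11 genes on 2R (chr2R:6161535-6171759, arginine, asparagine, isoleucine and lysine) and one of 11 on 3R (chr3R:17617761-17631750, alanine, proline, threonine and valine) had none in that window even in the ranked list. The 2R cluster of 7 glutamate and initiator methionine genes (chr2R:19725620-19728958) had none either. In the other 5 without a conservative peak, 2 to 4 genes had a ranked-list peak. Their highest signals ran from 18.8 at the 6 glutamate genes to 37.2 at the 6 cysteine and lysine genes, both on 3L.

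By arm, the share of tRNA genes with a peak was 12.2% on 2L (5 of 41), 12.2% on 2R (12 of 98), 12.7% on 3R (10 of 79) and 8.33% on X (2 of 24). Arm 3L had none among 48, which allows a share of up to 6.25% by 3 counts and 7.40% by the exact interval. That 0 rests on the window, since 6 of the 48 (12.5%) had a conservative summit within 1000 bp, the nearest at 504 bp (tRNA:Pro-AGG-1-7) and 564 bp (tRNA:Glu-CTC-3-1). With replicate 1's thresholded list alone 1 of the 48 had a summit within 500 bp. The counts were 3 on 2L and 8 on 2R with replicate 2's list alone, 6 on 3R with the same list, and 1 on X with either. On 3L, 10% of genes with 1 annotated start had a peak, and on the other 4 arms 8.42% to 10.2%. In the unthresholded ranked list, 31 of the 48 tRNA genes of 3L (64.6%) had a summit within 500 bp. Over all arms that list reached 49.3% of genes with 1 annotated start, and their share on 3L alone was not computed.

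Weaker peaks of the ranked list widened the set. With them, 134 tRNA genes (46.2%) had a summit within 500 bp, beside 54.6% of all genes and 49.3% of genes with 1 start. Of these 105 had only such a peak, with signals of 2.52 to 82.7 at their strongest and a median of 26.1, where the median of all 87125 ranked peaks was 20.5. The strongest was 82.7 at tRNA:Gln-TTG-2-1 on X (51.8 in replicate 1 and 24.8 in replicate 2). Then came tRNA:Glu-CTC-2-3 on 3L with 63.9 (32.7 and 26.8), tRNA:Pro-AGG-1-3 and 1-4 on 2L with a shared 60.1 (20.1 and 20.6), and tRNA:Asp-GTC-1-10 on 3L with 59.1 (37.9 and 23.8). The fifth peak, at tRNA:Arg-TCG-2-4 on 3R, had 58.0 (47.6 and 14.6). No peak was listed at 156 tRNA genes (53.8%).

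Bases around the summits were read for short sequences that had been set as motifs of interest. The next 3 stretches are summits with 50 bp on each side, all at tRNA genes of 2L and 3R, shown because they hold runs of 5 or more G or C, in capitals. They are given on the plus strand of dm6 from the RefSeq copy, for chr3R:8642401-8642501, chr2L:8619523-8619623 and chr2L:4419159-4419259.
tRNA:Tyr-GTA-1-4: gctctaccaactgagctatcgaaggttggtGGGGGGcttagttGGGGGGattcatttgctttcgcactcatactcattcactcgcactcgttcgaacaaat
tRNA:Asp-GTC-1-6: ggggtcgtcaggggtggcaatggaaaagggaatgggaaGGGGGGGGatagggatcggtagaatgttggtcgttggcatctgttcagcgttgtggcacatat
tRNA:Trp-CCA-2-1: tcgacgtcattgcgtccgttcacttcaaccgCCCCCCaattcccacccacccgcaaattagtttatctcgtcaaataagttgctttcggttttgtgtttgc

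GGGGG, on either strand and within 50 bp of the summit, was present at 14 of the 26 tRNA summits (53.8%) and at 53.1% of all 9211. The stretch at tRNA:Tyr-GTA-1-4 also covers the first bases of that gene. GAGAG was present at 3 (11.5%, beside 25.9% of all) and CACAC at 6 (23.1%, beside 27.8%). The motifs can overlap one another, and a match is a description of letters.

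Genes whose proteins make, process or load tRNA, mitochondrial synthetases included, had promoter peaks at 7 of 68 (10.3%). The share of protein-coding genes given above was 15.5%. Polr1D, a subunit shared by RNA polymerases I and III, had the strongest, with a signal of 595 (378 in replicate 1 and 218 in replicate 2). Bdp1, a subunit of TFIIIB, followed with 420.0 (248 and 169). These were the only 2 of 33 genes other than synthetases. Among 35 synthetase genes 5 had one: LysRS with 282 (170.4 and 114), HisRS with 216 (109.8 and 104), GluProRS with 140.5 (50.4 and 88.4), GlyRS with 76.3 (51.7 and 38.3) and AsnRS with 58.9 (30.4 and 31.1). The synthetases for tyrosine and tryptophan, the classes with the highest shares of tRNA genes with a peak, were not among them. The 35 include mitochondrial synthetases, with symbols ending in -m, although mitochondrial tRNA genes were left out. None of those had a promoter peak, so all 5 fell among the other synthetases, whose share alone was not computed.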

How the data were processed

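ChIP-seq peak lists of 2 libraries, both of 1 group, were used. The authors' deposited files give for each peak a signal (its height, scaling not stated) and a score (a rescaled irreproducible discovery rate, 830 to 1000 in the conservative list), on dm6 per the labels. The software that aligned reads and called peaks is not given in the sources used here. Signals were compared within 1 list only. Replicate signals are those of the overlapping peak with the nearest summit in each replicate's own ranked list. In the joint ranked list 2 per-replicate signal columns were not used. Read counts were not used, so depth is unknown.

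Gene positions came from Ensembl release 115, without transposable elements. Named were all tRNA genes with a conservative peak, the 10 strongest in full, the 5 strongest weaker peaks, clusters of 5 or more genes, and sequences with members on both sides. Members and lists were chosen with earlier results of these data known. Shares carry exact Clopper-Pearson 95% intervals, and limits for a count of 0 rest on 3 counts. Peaks and gene copies are not replicates, so no p-value is given. Functions were tested on simulated data. Alternatives were other lists, thresholds, windows and cluster gaps. Computations used Python 3.11.15, numpy 2.4.6, pandas 2.3.3, scipy 1.17.1 and matplotlib 3.10.9.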

Additional observations from a re-analysis of the deposited data

How the results depend on the processing

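The count of tRNA genes with a peak, 29 in the conservative list, depended on threshold and window. It was 17 with signals at or above the list's median, 134 with every ranked peak, 16 at 250 bp, 49 at 1000 bp, 12 where the peak had to overlap the gene body, and 19 where the tRNA start had to be the nearest of any gene. It was 18 with the thresholded list of replicate 2 alone and 24 with that of replicate 1. Distinct peaks, 26 in the conservative list, numbered 12, 157, 16, 42 and 12 under the first 5 of these, 15 in replicate 2 alone and 19 in replicate 1 alone. Under the other alternatives run, these 2 counts, the clusters with a peak and the tRNA machinery genes with one stayed within 1.5 times. The share of single genes with a peak went from 10.5% to 5.26% without replicate 1. Set beside genes with 1 annotated start, the share of tRNA genes was higher under some settings (16.9% and 14.6% at 1000 bp) and lower under others (5.52% and 6.05% at 250 bp), a comparison added after the data were seen. tRNA-Tyr genes with a peak numbered 4 to 6 over the lists and windows, a check added after the data were seen. Intron-bearing genes with a peak rose to 11 with every ranked peak. No paired analysis was possible because the only group has no other group to be compared with. Depth is unknown, so an unlisted peak shows only that none was called.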

Other observations

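Other genes that RNA polymerase III transcribes were counted in the same way, beside 14.1% of all genes and 9.48% of genes with 1 start with a conservative peak. In the single 5S rRNA array on 2R, none of 100 annotated 5S rRNA genes, pseudogenes included, had one, and 3 had a peak in the ranked list. These copies are near-identical, and how their reads were placed is not given in the sources used here. Of 10 other such RNA genes 2 had a conservative peak: snRNA:7SKa, a regulator of transcription elongation, with a signal of 641, and RNaseMRP:RNA, an rRNA processing RNA, with 84.6. snRNA:7SKb had only a ranked-list peak of 42.0, RNaseP:RNA, which trims the 5′ end of tRNAs, one of 25.4, and 7SLRNA:CR42652, the RNA of the signal recognition particle, one of 11.6. The peak of 11.6 was also the one listed at tRNA:Lys-TTT-2-1, with its summit 148 bp from that tRNA start. The 3 U6 genes, snRNA:U6atac and 7SLRNA:CR32864 had no listed peak.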
